A study of Mus musculus with 8 samples.

Results

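Acute-phase and secreted defence genes were followed through the cell types of mouse pancreatic islets, namely Lcn2, Lrg1, Orm1, Steap4, Pigr, Saa3, S100a8, S100a9, Hp and Defb1. They are 10 of the 30406 genes listed for every library. The list was drawn up with measured values in view, because several of these genes lead the β-cells exposed to cytokines together with NMMA. Comparisons of β-cells that involve this condition are therefore given as values only, and tests are kept for other contrasts and other cell types. In β-cells, 8 of the 10 genes were called higher with cytokines without NMMA, where 46.1% of all tested genes were called in either direction and 23.7% higher. Lcn2, Steap4, Pigr, Saa3 and Defb1 kept the call under every alternative tried, and Lrg1, Orm1 and S100a9 lost it under at least 1. Saa3, Orm1 and S100a9 passed the filter on low counts only through the cytokine conditions, so their calls are no evidence of their own. The level of Lcn2 was 28.6-fold and that of Defb1 25.2-fold the untreated level, and they spread over the β-cells in different ways. Lcn2 UMIs came from few cells, and Defb1 was detected in most cells.

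The acute-phase response is the shift in secreted proteins that follows infection or injury. It is best known from the liver, where IL-1 and IL-6 act through NF-κB, STAT3 and C/EBP factors on the promoters of the genes concerned. Many epithelia use the same genes locally, and their products withhold iron or zinc from bacteria, carry antibodies across the cell layer or attack microbial membranes. IL-1β signals mainly to NF-κB. The cytokine pair also induces Nos2, the inducible nitric oxide synthase, and NMMA (an arginine analogue) blocks the enzyme, so that cytokine responses can be read with and without nitric oxide.

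Islets came from male C57BL6/J mice aged 12 to 16 weeks, and each of 2 replicates was a pool of islets from 10 mice that was shared out among 4 cultures. The islets stayed intact for 18 h without addition (untreated), with IL-1β at 10 U/mL plus IFN-γ at 150 U/mL (cytokines), with the same cytokines and 2 mM NMMA, or with 2 mM NMMA alone, and were dispersed to single cells afterwards. No group carried a genetic change, whole islets were exposed, so that any islet cell could pass a signal to another, and a value belongs to a pool and not to a mouse. With 2 pools, p-values measure the spread between these pools only. RNA was captured in droplets, and each captured molecule was counted by its unique molecular identifier (UMI).

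The 8 libraries held between 26549922 and 50731370 UMIs, and 10876 of 17426 barcodes were kept. Cell types were rebuilt by clustering all kept cells, and the names rest on marker genes. The β-cell markers summed to between 386500 and 480560 counts per 1000000 UMIs (CPM) in β-cells and the ductal markers to 30940 in untreated ductal cells of replicate 1. Some clusters inside named types were led by other genes, as 1 α-cell cluster was by Iigp1, Steap4 and Gbp2 and 1 β-cell cluster by Gbp2 and Defb1. Replicate 2 held 255 to 805 barcodes per library that stayed unnamed, against 35 to 102 in replicate 1. The median depth of these barcodes was 584.5 to 757 UMIs in replicate 2. No pair of libraries shared more than 2 cell barcodes. Levels below are CPM, the UMIs of a gene for each 1000000 UMIs of a cell type in a library, given in the order replicate 1 and replicate 2. A higher level in such a sum cannot tell more expressing cells apart from more RNA per cell.

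Lcn2 encodes lipocalin 2, a secreted protein that binds bacterial siderophores and so keeps iron from bacteria (chr2:32384633-32388252, minus strand, GRCm38). In β-cells its level was 38.4 and 12.2 in the untreated libraries, 40.2 and 26.7 with NMMA alone and 796 and 651 with cytokines. The cytokine libraries lie apart from the untreated ones, with means of 723 ± 102 (SD, n = 2) and 25.3 ± 18.5 (SD, n = 2), and the change was 5.04 ± 0.69 on the log2 scale (SE, edgeR quasi-likelihood, adjusted p = 0.003). A single untreated β-cell of replicate 1 held 403 of that library's 1350 Lcn2 UMIs.

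Defb1 encodes β-defensin 1, an antimicrobial peptide of epithelia (chr8:21776599-21795185, plus strand). Its β-cell level was 25.1 and 30.6 untreated, 41.2 and 47.4 with NMMA and 813 and 589 with cytokines. The change with cytokines was 4.88 ± 0.24 on the log2 scale (SE, adjusted p = 3e-06 in edgeR), from a mean of 27.8 ± 3.9 (SD, n = 2) to 701 ± 158 (SD, n = 2). The libraries do not overlap.

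Pigr, the receptor that carries polymeric immunoglobulin through epithelial cells (chr1:130826684-130852249, plus strand), was the member with the smallest called change in β-cells. It was at 13.8 and 23.0 untreated, at 17.2 and 21.6 with NMMA and at 55.3 and 63.1 with cytokines, and rose by 1.92 ± 0.21 on the log2 scale (SE, adjusted p = 0.00017). Steap4, a metalloreductase of iron and copper that cells make under inflammation (chr5:7960457-7982213, plus strand), was near zero without cytokines. It stood at 0.739 and 0.966 untreated, 0.454 and 0.136 with NMMA and 15.3 and 14.6 with cytokines, a rise of 4.39 ± 0.28 (log2, SE, adjusted p = 1.3e-05). Both cytokine libraries lie above every control library for Pigr and for Steap4.

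Lrg1, a secreted leucine-rich glycoprotein that modulates TGF-β signalling in vessels (chr17:56119678-56122001, minus strand), was at 1.51 and 4.38 untreated, 3.73 and 2.86 with NMMA and 17.8 and 42.1 with cytokines. Its rise was 3.67 ± 0.78 (log2, SE, adjusted p = 0.018). Most of the Lrg1 UMIs of the untreated replicate 2 library, 50 of 68, came from 1 cell, and without the highest cell of each library the change was 4.78 ± 0.6 (log2, SE). Without the untreated library of replicate 1 the call was lost. Orm1, the plasma carrier protein orosomucoid 1 (chr4:63344560-63348163, plus strand), stayed low at 1.37 and 3.50 with cytokines, above 0.256 and 0.0644 untreated and 0.202 and 0 with NMMA. Its change of 3.77 ± 0.81 (log2, SE) passed the test with an adjusted p of 0.01 and missed it with an adjusted p of 0.0524 in the replicate block fit, and it also missed it without either untreated library. Orm1 has near-identical copies, Orm2 and Orm3, between which 3′ reads can be divided, so its level is uncertain.

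The remaining members were found in few cells. Saa3, a serum amyloid A made outside the liver (chr7:46711998-46715700, minus strand), was at 0.0853 and 0.0644 untreated, 0.454 and 0.068 with NMMA and 44.6 and 46.7 with cytokines. The change was 9.28 ± 0.76 (log2, SE, adjusted p = 0.00021), and the cytokine mean was 610-fold the untreated mean, which rests on 4 UMIs. S100a8 and S100a9 form calprotectin, a zinc- and manganese-binding protein that neutrophils hold in large amounts. S100a9 (chr3:90692632-90695721, minus strand) had no UMI in untreated β-cells or with NMMA, and was at 26.1 and 15.8 with cytokines, at least 378-fold higher when the floor is 3 UMIs over the group. It passed the filter only through the cytokine conditions, so it had to differ and its call is no evidence of its own. The same holds for Saa3 and Orm1, which were near zero in all libraries without cytokines. S100a8 (chr3:90668978-90670035, plus strand) was at 11.3 and 0.241 with cytokines against 0.0284 and 0 untreated, a ratio of 371 with a 95% counting interval of 66.1 to 14682. The edgeR test gave an adjusted p of 0.18 for S100a8, and the fit with the replicate as a block gave 5.67e-10. S100a9 was not called when the limit on mitochondrial UMIs was 5%. Hp, haptoglobin, which captures free haemoglobin (chr8:109575128-109579172, minus strand), had 7 UMIs in all named cell types together and was not tested.

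Of the 10 genes, 9 passed the filter on low counts in β-cells and 8 were called higher with cytokines, while 46.1% of the 12778 genes tested were called in either direction (23.7% higher). The median change was 4.88 over these 9 genes and 0.00 over all genes tested (log2). A gene that passes the filter through its cytokine libraries alone had to differ, so the count is a description. With NMMA alone, 0 of the 9 genes were called by edgeR against untreated β-cells, where 0% of genes were called. DESeq2 also called 0, and 2 members had an unadjusted p under 0.05, Steap4 and Defb1. For Defb1 the change with NMMA was 0.68 ± 0.2 (log2, SE, adjusted p = 0.52), with both NMMA libraries above both untreated ones.

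**Figure D1:**
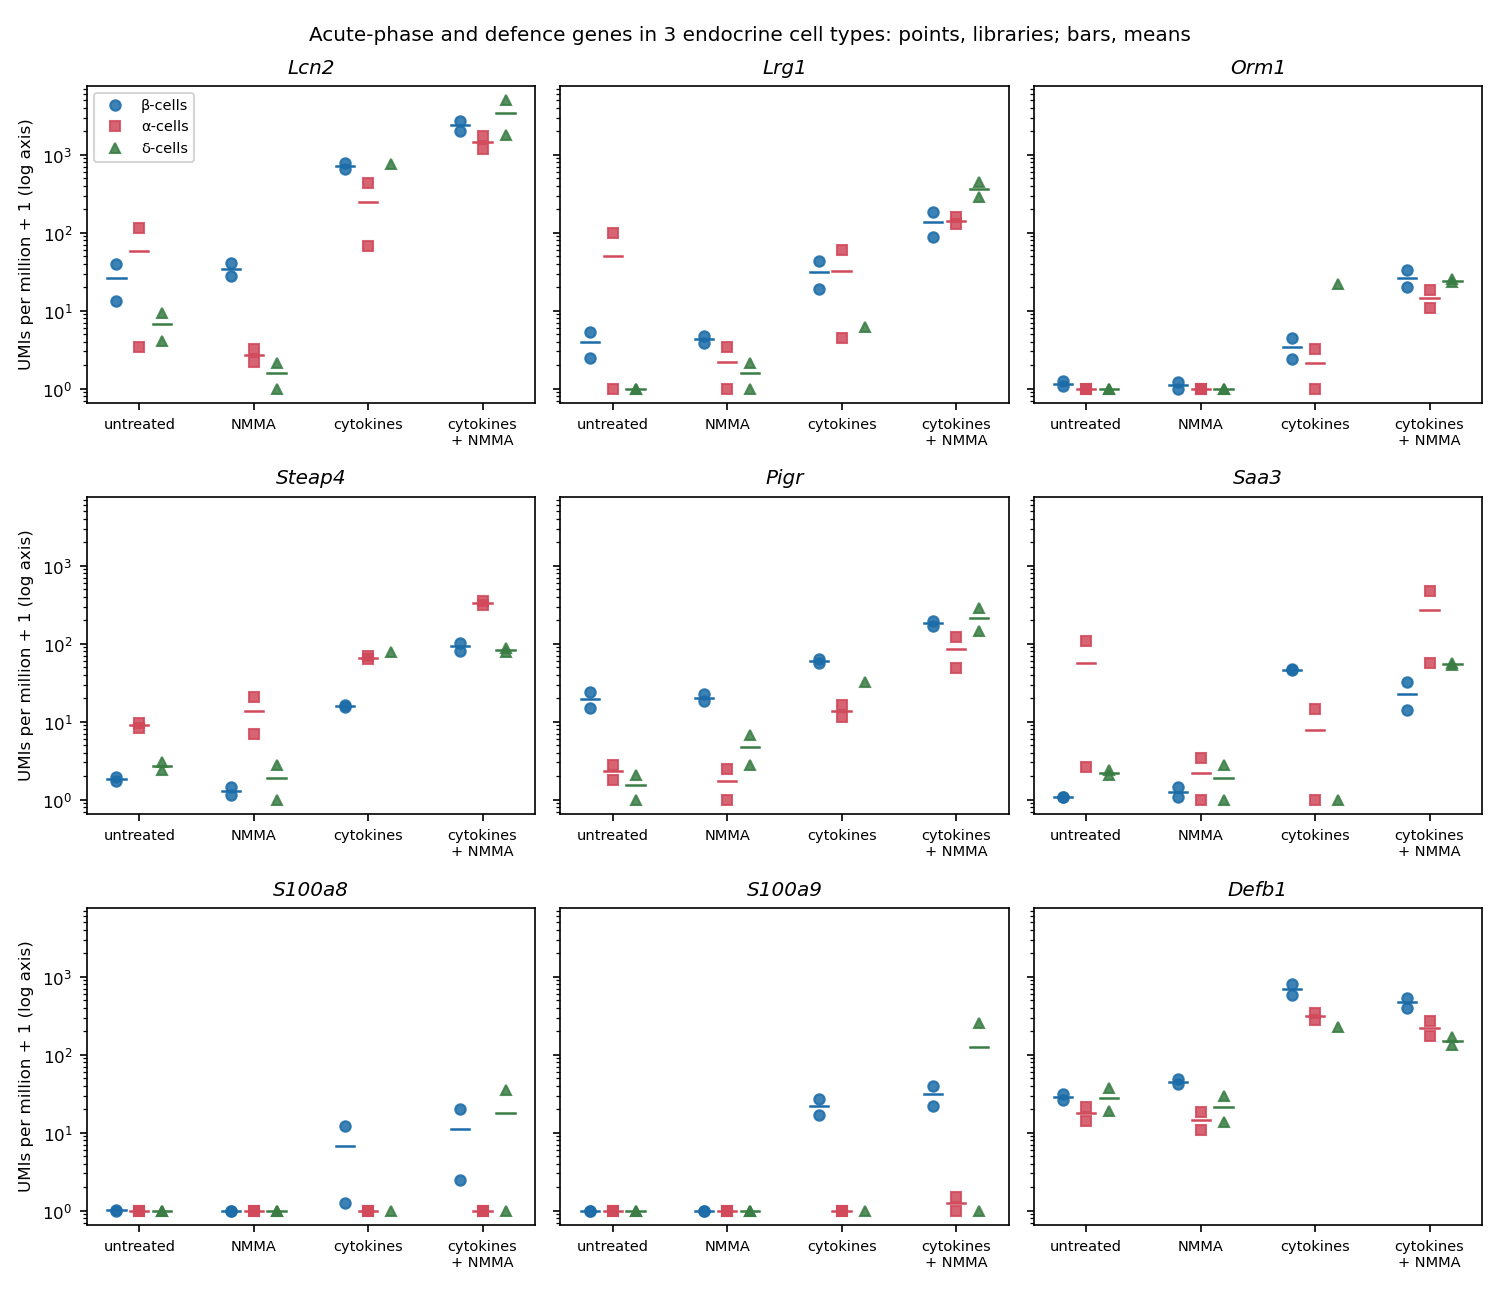
CPM plus 1 (log axis) of 9 members in β-, α- and δ-cells under the 4 conditions. Each point is a library with at least 10 cells of the type and each bar is the mean of 2 libraries. Lcn2 in β-cells goes from 38.4 and 12.2 untreated to 796 and 651 with cytokines, and Hp is left out because it had 7 UMIs in all.

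Next, β-cells with cytokines plus NMMA are described. The genes were chosen on these cells, so the values carry no test. Lcn2 was at 2754 and 2016, 3.3-fold the mean with cytokines alone, and the libraries do not overlap. Lrg1 was at 88.5 and 186 (4.59-fold), Orm1 at 32.0 and 19.3 (10.6-fold), Steap4 at 102 and 80.9 (6.12-fold) and Pigr at 170 and 197 (3.1-fold). For each of these genes both libraries with NMMA lay above both without it. The share of all genes that lie apart in this way is not given, and the genes were chosen on these cells, so this is a description only. Defb1 and Saa3 lay the other way. Defb1 was at 535 and 403, 0.669 times its mean with cytokines alone, and Saa3 at 30.9 and 13.1, 0.482 times. With cytokines plus NMMA 1 cell held 224 of 567 Saa3 UMIs in replicate 1 and 1 held 101 of 151 in replicate 2. Saa3 UMIs were found in 30 of 647 and 12 of 451 β-cells there, against 57 of 1135 and 34 of 572 with cytokines. S100a8 was at 19.0 and 1.47 and S100a9 at 39 and 21, and for both genes the libraries with and without NMMA overlap. Among all genes 22.6% were called between cytokines with NMMA and untreated β-cells and 19.2% between the cytokine conditions, which are printed as background only. Nos2, the target of NMMA, was at 173 and 145 with cytokines and at 471 and 485 with cytokines plus NMMA.

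The share of β-cells with a UMI was compared after each cell was thinned to 9500 UMIs, because depth differed between libraries. Defb1 was detected in 19.0% and 19.2% of untreated β-cells, in 28.2% and 34.1% with NMMA, in 91.7% and 84.4% with cytokines and in 85.3% and 80.3% with cytokines plus NMMA. Lcn2 was detected in 2.94% and 4.27% of untreated β-cells, in 26.2% and 32.9% with cytokines and in 51.3% and 55.9% with cytokines plus NMMA. In macrophages of the same libraries, without thinning, Lcn2 was found in 18.2% and 13.9% of cells with cytokines and in 35.7% and 40.9% with cytokines plus NMMA, and Defb1 in 21.2% and 8.33% and in 10.7% and 2.27%. Macrophages had median depths of 10660.5 to 15166 UMIs in these libraries and β-cells of 24685 to 28636. The part of free RNA in these shares was not tested. The share for Steap4 was 10.8% and 10.0% with cytokines and 37.2% and 31.5% with NMMA added, and for Pigr 28.3% and 32.3% against 57.2% and 52.1%. For Saa3 the share was 3.25% and 4.17% with cytokines, and for S100a9 it was 1.99% and 2.71%. Exact 95% intervals for these shares cover counting error only.

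**Figure D2:**
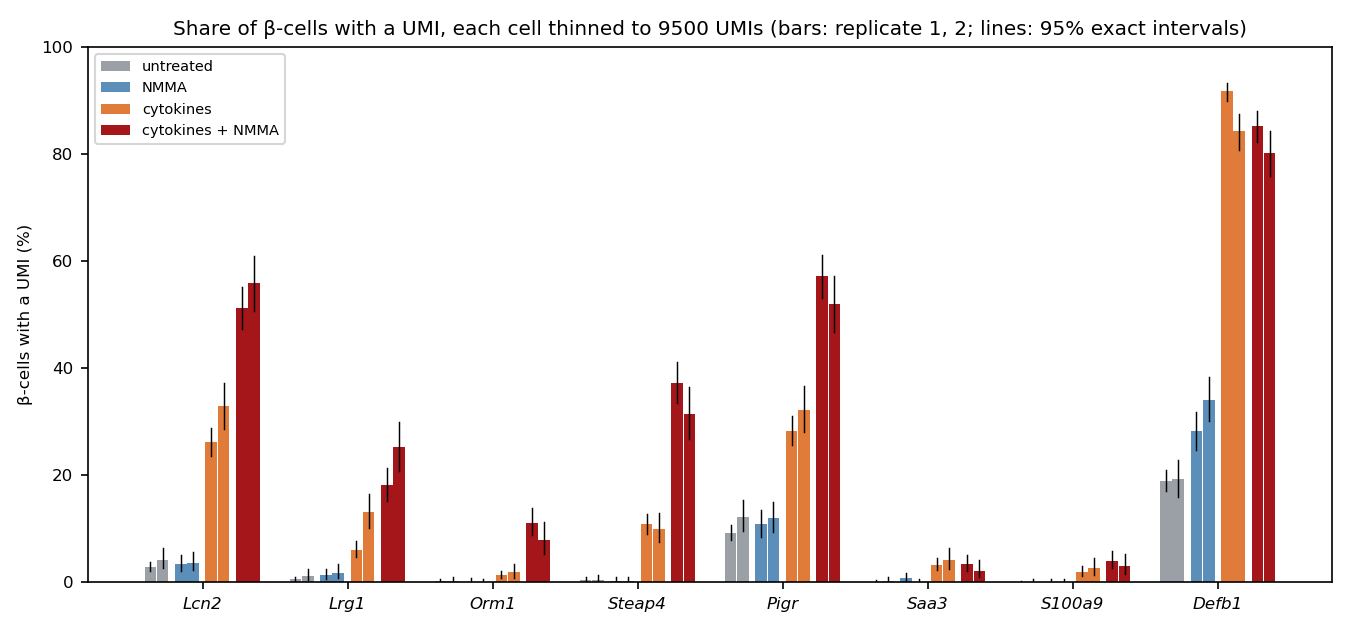
Percent of β-cells with at least 1 UMI of 8 members (S100a8 and Hp not shown) after thinning to 9500 UMIs per cell, by condition and replicate, with exact 95% intervals. Defb1 reaches 91.7% and 84.4% with cytokines, and Lcn2 goes from 26.2% and 32.9% with cytokines to 51.3% and 55.9% with cytokines plus NMMA.

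The UMIs of the members were unequally divided among β-cells. With cytokines, 50% of the Lcn2 UMIs came from 32 of 1135 β-cells in replicate 1 and from 22 of 572 in replicate 2. For Defb1 the same share came from 218 and 87 cells, and for Pigr from 87 and 47. With cytokines plus NMMA, 44 of 647 and 29 of 451 cells held 50% of Lcn2. The cell with most Lcn2 held 1285 UMIs of it in the replicate 1 cytokine library. Saa3 was the narrowest of the members called in β-cells apart from S100a9: 3 and 4 β-cells held 50% of its UMIs with cytokines, out of 57 and 34 cells with any.

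**Figure D3:**
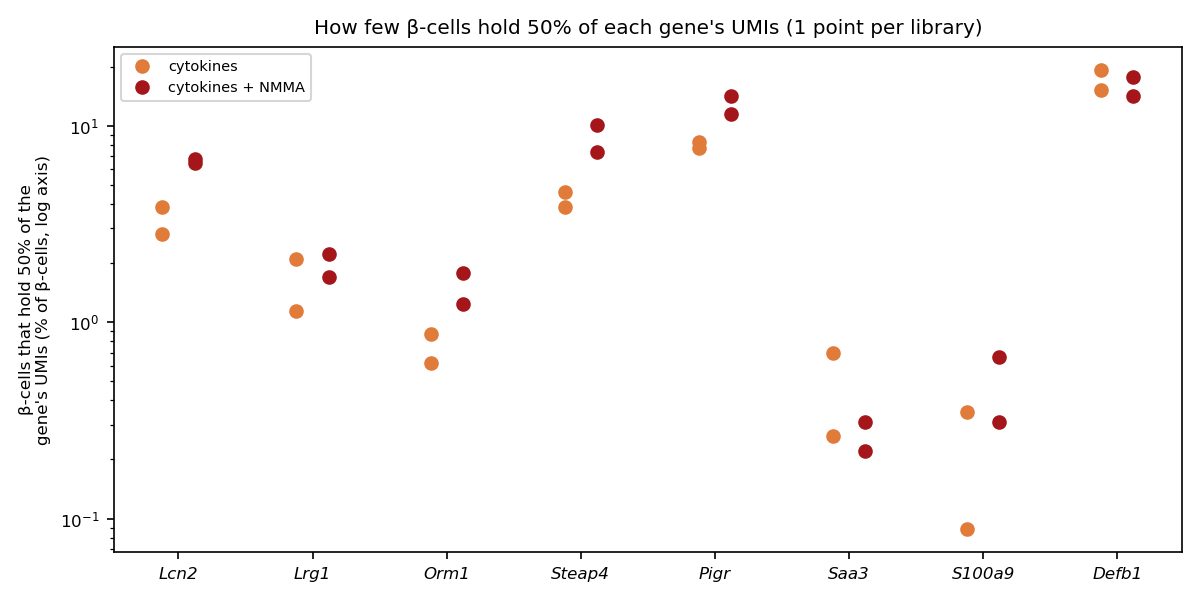
Percent of β-cells that together hold 50% of a gene's UMIs, by member and library of the cytokine conditions (log axis, S100a8 and Hp not shown). Defb1 takes 19.2% and 15.2% of β-cells with cytokines, Lcn2 2.82% and 3.85%, and S100a9 under 1%.

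Single cells held most of the S100a8 and S100a9 UMIs in some libraries and a smaller part in others. In the replicate 1 cytokine library 1 β-cell held 319 of 331 S100a8 UMIs and 639 of 762 S100a9 UMIs. Insulin made up 37.9% of that cell's 37551 UMIs, and the cell had 1 UMI of the 10 neutrophil markers that were listed apart from this gene pair. In replicate 1 with cytokines plus NMMA, another β-cell held 142 S100a8 and 279 S100a9 UMIs beside 414 UMIs of Lcn2, and insulin made up 48.1% of its UMIs. Another cell, in the replicate 2 cytokine library, had 89 UMIs of S100a9 and none of S100a8. That was 34.0% of the S100a9 UMIs of β-cells in that library, where 21 β-cells had any. None of these cells was a predicted doublet. Of all kept barcodes 152 had S100a8 or S100a9, 1 of these had 2 or more neutrophil markers, and no barcode in any library had 3 or more.

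The neutrophil list as a whole was at 0.129 to 0.476 CPM in β-cells without cytokines. It was at 22.2 and 23.1 with cytokines and at 58.4 and 70.5 with cytokines plus NMMA, with 7 or 8 of its 10 markers at 0 in each of these libraries. Most of these counts were of Ltf, lactoferrin, an iron-binding protein that is also in the list of other acute-phase genes below. The part of neutrophils in these values was not tested.

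A β-cell with cytokines often had several members at once. In a separate draw at the same thinned depth, 18.2% and 25.8% of β-cells with cytokines had UMIs of 3 or more of the 10 genes, 54.2% and 52.1% with cytokines plus NMMA, and 0.313% and 0.388% untreated. No member was found in 5.32% and 9.38% of β-cells with cytokines, against 71.6% and 64.9% untreated. Lcn2 without Defb1 was seen in 1.81% and 3.33% of β-cells with cytokines, and Defb1 without Lcn2 in 65.9% and 51.9%.

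Upstream sequences are shown for Lcn2, Steap4 and Saa3, which differ in how NMMA went with their level in β-cells. The RefSeq promoter sequences used here (GRCm38.p6) matched 7 of the 10 genes, all but Orm1, Hp and Defb1, and the printed windows run from 250 bases before the start to the last base before any annotated untranslated region. Lcn2 is shown for chr2:32387798-32387989 (minus strand, overlapping an exon of the alternative transcript Lcn2-206), Steap4 for chr5:7960222-7960456 (plus strand) and Saa3 for chr7:46715701-46715926 (minus strand). Capitals mark matches to the motifs named below the sequences, read on both strands. The search itself covered all 250 bases before the start in members and in all promoters, printed or not.
Lcn2: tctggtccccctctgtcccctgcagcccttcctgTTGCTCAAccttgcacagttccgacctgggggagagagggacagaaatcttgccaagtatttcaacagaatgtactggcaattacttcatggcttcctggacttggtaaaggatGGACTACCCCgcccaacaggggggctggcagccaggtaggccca
Steap4: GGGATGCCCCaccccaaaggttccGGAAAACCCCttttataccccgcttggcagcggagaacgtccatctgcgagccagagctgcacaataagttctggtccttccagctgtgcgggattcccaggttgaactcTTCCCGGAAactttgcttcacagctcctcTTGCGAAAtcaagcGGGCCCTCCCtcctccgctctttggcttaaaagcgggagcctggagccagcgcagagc
Saa3: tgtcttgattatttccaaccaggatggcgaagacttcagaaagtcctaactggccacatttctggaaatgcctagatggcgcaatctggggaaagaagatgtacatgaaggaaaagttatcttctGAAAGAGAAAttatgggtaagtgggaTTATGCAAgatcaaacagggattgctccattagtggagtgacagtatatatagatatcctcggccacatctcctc

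The NF-κB pattern, GGG and CC with any 5 bases between them, lies 102 bases before the start of Lcn2 and 250, 226 and 73 bases before that of Steap4, and Pigr and Lrg1 hold it too, the latter 34 bases before the start. That makes 4 of 7 members, and 45.8% of all 32851 promoters hold it. The C/EBP pattern TTGCNNAA was found in 4 of 7 members, 216 bases before Lcn2, 87 before Steap4, 99 before Saa3 and also upstream of S100a9, and in 9.56% of all promoters. The STAT pattern TTCNNNGAA was found 116 bases before Steap4 and in 7.02% of all promoters, and the interferon response pattern, TTTC repeated after any 2 bases, 125 bases before Saa3 and in 2.98%. A match is a run of letters and not a measured binding site.

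In α-cells, Defb1, Steap4 and Pigr rose with cytokines, and in δ-cells Lcn2, Orm1, Steap4 and Defb1 did. Defb1 in α-cells was at 20.6 and 13.2 untreated and at 340 and 280 with cytokines, a change of 4.71 ± 0.33 (log2, SE, adjusted p = 4.5e-07). Steap4 was at 8.73 and 7.22 untreated and at 67.8 and 62.9 with cytokines, a change of 3.52 ± 0.35 (log2, SE, adjusted p = 3.5e-06). For both genes the cytokine libraries lie above the untreated ones. Pigr went from 0.794 and 1.80 to 15.2 and 10.5 (3.58 ± 1, log2, SE, adjusted p = 0.033), a call lost without any 1 of the untreated and cytokine libraries and without the highest cell of each library (adjusted p = 0.12). The Pigr call was lost under 9 of 18 alternatives. Among them were the removal of predicted doublets (adjusted p = 0.0778 in edgeR) and clustering at Leiden resolution 0.5 (0.0504). In all, 3 of the 7 genes that passed the filter in α-cells were called with cytokines, where 23.5% of genes were called. With cytokines plus NMMA 4 of 7 were called against untreated α-cells (8.62% of genes), namely Orm1, Steap4, Pigr and Defb1. Pigr and Orm1 had few or no UMIs untreated and passed the filter through the cytokine conditions, so the counts in α-cells are a description.

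The level of Lcn2 in α-cells was 2.38 and 113 untreated, 1.22 and 2.25 with NMMA, 66.6 and 429 with cytokines and 1724 and 1195 with cytokines plus NMMA. It was not called, with an adjusted p of 0.35 for cytokines and 0.26 for cytokines plus NMMA. In the replicate 1 cytokine library 31 of 57 Lcn2 UMIs came from 1 predicted doublet, in which insulin made up 18.3% of the UMIs. The untreated replicate 2 value rests on 1 cell with 160 UMIs of Lcn2, 166 of Lrg1 and 180 of Saa3, which are 85.1% of the Lcn2 and 100% of the Lrg1 and Saa3 UMIs of the α-cells of that library. That cell had 18 UMIs of Gcg (glucagon) among 9921 UMIs, and without it Lcn2 is at 16.9. Lrg1 was at 129 and 156 and Saa3 at 480 and 56.4 in α-cells with cytokines plus NMMA, and neither was called.

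δ-cells were few, and only the replicate 2 library held at least 10 of them with cytokines, so that 1 library stands for this group and is taken to vary like the others. Its Lcn2 level was 768, against 3.12 and 8.23 untreated (6.93 ± 1.02, log2, SE, a call lost without either untreated library), and 123 of its 148 UMIs came from 1 of 12 cells. That cell had 1453 UMIs of Gcg and 322 of Sst (somatostatin), so it was not a clear δ-cell. With cytokines 4 of 9 tested members were called, where 5.86% of genes were called, and without the highest cell of each library only Defb1 was, at 228 against 36.4 and 17.8. Pigr at 31.1 had an adjusted p of 0.089, and of 0.00108 in the replicate block fit. With cytokines plus NMMA 7 of 9 were called in δ-cells, where 8.8% of genes were called. Lcn2 was at 1797 and 5007 (9.24 ± 1.01, log2, SE, adjusted p = 0.014, lost without untreated replicate 1), Lrg1 at 286 and 447, at least 202-fold above untreated cells without a UMI, and Pigr at 144 and 286. Steap4 at 87.9 and 77.5, Saa3 at 54.9 and 52.6, Orm1 at 24.2 and 22.3 and Defb1 at 133 and 169 were the others. Apart from Defb1, the genes called had few or no UMIs in untreated δ-cells and passed the filter through the cytokine conditions. The counts of called members in δ-cells are a description for that reason. S100a9 had 230 UMIs in the replicate 1 library, 229 of them in 1 δ-cell, and S100a8 had 30 of 31 UMIs in another. The edgeR test did not call this pair (adjusted p = 0.64 and 0.7), and the replicate block fit did (adjusted p = 1.15e-05 and 4.88e-48) although the UMIs lie in 1 library.

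For non-β endocrine cells as 1 class, α- and δ-cells were added up, and the cytokine conditions can be compared there on cells that did not serve to choose the genes. Of 7 genes tested, 3 were lower with cytokines than with cytokines plus NMMA, where 10.6% of genes were called. Steap4 differed by -1.65 ± 0.25 (log2, SE, adjusted p = 0.0011), Pigr by -2.85 ± 0.47 (adjusted p = 0.01) and Orm1 by -2.28 ± 0.67 (adjusted p = 0.049). The Pigr call was lost with a mitochondrial limit of 5% (adjusted p = 0.0646 in edgeR). It was also lost without the cytokine library of replicate 1 or of replicate 2, with differences of -2.98 and -2.62 (log2). With cytokines plus NMMA Orm1 had 30 and 19 UMIs in α-cells and 22 and 17 in δ-cells, out of 52 and 43 over all libraries. It passed the filter through that condition, so its call is no evidence of its own. The class held 49 α- and 7 δ-cells in replicate 1 and 66 and 12 in replicate 2 with cytokines, and 100 and 59 and 90 and 36 with NMMA added, so the cell types enter in different proportions. In α-cells alone Steap4 had means of 65.3 and 334 and Orm1 of 1.12 and 13.7 without and with NMMA. In δ-cells Steap4 was at 77.9 in the 1 cytokine library against a mean of 82.7 with NMMA added, and Orm1 at 20.8 against 23.3, while Pigr was at 31.1 against 215. The Steap4 value of 77.9 rests on 15 UMIs, 93.3% of them in 1 of 12 cells, so it cannot show whether δ-cell Steap4 differed with NMMA. Without the cytokine library of replicate 1, 1 gene was called, and without the highest cell of each library Orm1 had an adjusted p of 0.12. Lcn2 differed by -2.18 ± 1.31 (adjusted p = 0.4, and 0.000156 and 0.000201 without untreated replicate 1 or 2) and Defb1 by 0.91 ± 0.36 (adjusted p = 0.16). These libraries are the same ones in which the β-cells were described.

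Against untreated non-β endocrine cells, 4 of the 7 genes were called with cytokines (21.6% of genes) and 4 with cytokines plus NMMA (10.4%), Orm1, Steap4, Pigr and Defb1 each time. Orm1 and Pigr had few or no UMIs untreated and passed the filter through the cytokine conditions, so these counts are a description. Lcn2 had an adjusted p of 0.18 with cytokines and 0.13 with cytokines plus NMMA. The latter was 0.0407 in the replicate block fit, and without the highest cell of each library the values were 0.0492 and 0.0286. Without untreated replicate 1 they were 0.000211 and 6.88e-07, and without untreated replicate 2 they were 2e-07 and 1.35e-08. Without the cytokine library of replicate 2, 2 genes were called with cytokines. NMMA alone called 0 of 7, with 0% of genes called, 0 members at an unadjusted p under 0.05 and 0 by DESeq2.

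In macrophages, of which 28 to 72 were found per library, Lcn2 was at 0 and 1.39 untreated, 0 and 0 with NMMA, 17.3 and 13.1 with cytokines and 38.1 and 47.9 with cytokines plus NMMA. Lcn2 was the only member that passed the filter there, and only through the cytokine conditions, so a call of it is no evidence of its own. It was not called with cytokines (3.77 ± 1.16, log2, SE, adjusted p = 0.095, with 4.62% of genes called) and rose with cytokines plus NMMA (5.25 ± 1, adjusted p = 0.0053, with 6.46% called), a call that was lost without the replicate 2 library of that group. Between the cytokine conditions 0.116% of genes were called and Lcn2 had an adjusted p of 0.75, and with NMMA alone 0% were called. Steap4 had no UMI in macrophages of any library, and Saa3 had 2 UMIs.

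Endothelial cells had Lcn2 at 5.99 and 2.85 untreated, 13.6 and 7.54 with cytokines and 50.5 and 44.6 with cytokines plus NMMA. Of 2 tested members (Lcn2 and Saa3), 0 were called by edgeR with cytokines, where 6.01% of genes were called, 0 had an unadjusted p under 0.05 and DESeq2 called 0. With cytokines plus NMMA Lcn2 rose by 3.65 ± 0.71 (log2, SE, adjusted p = 0.003, with 6.52% of genes called), which was lost without the replicate 2 library of that group, where 1 cell held 12 of 23 UMIs. Lcn2 passed the filter there through the cytokine conditions, so this call is no evidence of its own. Between the cytokine conditions and for NMMA alone 0% of genes were called. Mesenchymal cells had Lcn2 at 3.36 and 2.50 untreated, 45.5 and 9.77 with cytokines and 74.3 and 35.7 with cytokines plus NMMA, not called either time (adjusted p = 0.44 and 0.16, with 1.84% and 1.97% of genes called). Saa3 reached 701 in the replicate 1 mesenchymal library with cytokines plus NMMA, 125 of its 132 UMIs in 1 cell, and S100a8 reached 325 in the NMMA library of replicate 1, with all 63 UMIs in 1 cell.

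The levels in macrophages, endothelial and mesenchymal cells were set beside insulin, which such cells should lack. In macrophages, endothelial and mesenchymal cells of the 4 cytokine libraries, Ins1 and Ins2 were at 0.553% to 1.66% of their β-cell level. Lcn2 was at 1.16% to 5.72% of its β-cell level and Defb1 at 0% to 3.43% of its own. When every cell was thinned to 1000 UMIs, Lcn2 was detected in 8.0% and 5.26% of macrophages with cytokines plus NMMA and in 32.9% and 35.4% of β-cells, against 16.3% and 17.7% of β-cells with cytokines alone. In α-cells Ins1 and Ins2 were at 2.52% and 1.43% of their β-cell level untreated and at 13.8% and 12.6% with cytokines. They were at 4.63% and 14.6% with cytokines plus NMMA. With cytokines, α-cell Lcn2 was at 8.37% and 65.9% of its β-cell level and Defb1 at 41.8% and 47.5%. The part of free RNA or of β-cell RNA in these levels was not tested.

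Ductal cells made Lcn2 in every condition in which they were found. There were 39 of them, and with fewer than 10 cells in nearly all libraries no test was made. In replicate 1 Lcn2 was at 11406 in 13 untreated cells (exact Poisson 95% interval 10920 to 11908), at 7972 in 5 cells with NMMA, at 22186 in 6 cells with cytokines and at 7867 in 8 cells with cytokines plus NMMA. In replicate 2 it was at 422 in 2 untreated cells and 6397 in 5 cells with NMMA, and no ductal cell was found in either cytokine condition. Lcn2 is among the genes that lead this cluster, so its level there is no independent finding. Pigr was at 209 with cytokines (28 UMIs, exact Poisson 95% interval 139 to 302) and at 0 to 8.1 in the other ductal libraries. Lrg1 was at 99.1 in the untreated and 74.7 in the cytokine library of replicate 1 and at 93.3 with NMMA in replicate 2, with no UMI in the other 3. Steap4 had 1 UMI and Saa3 none in these cells.

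**Figure D4:**
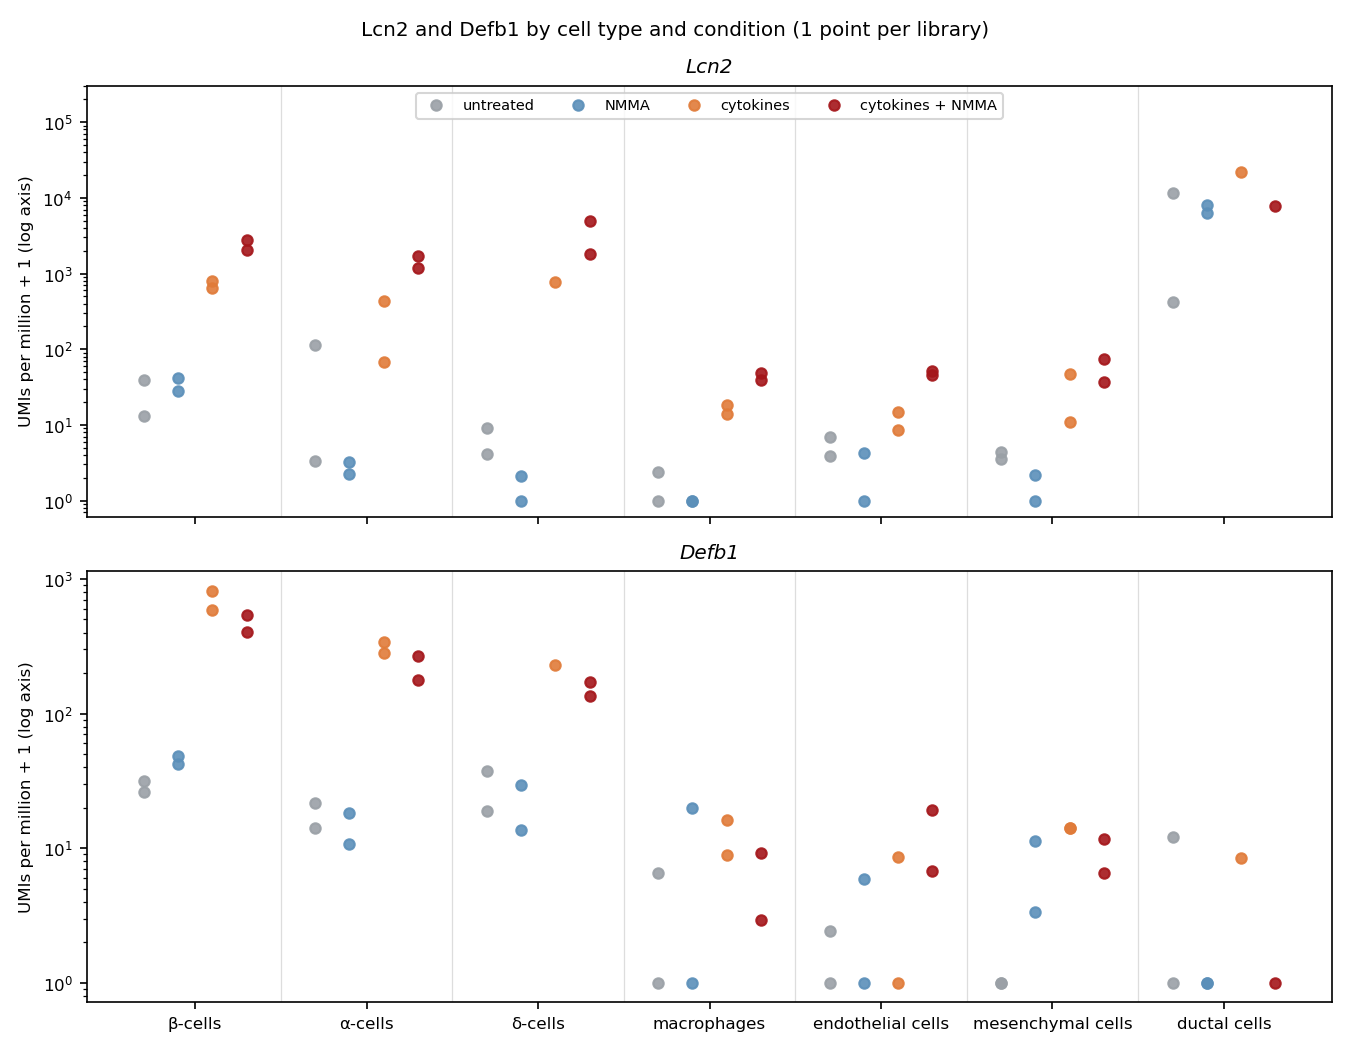
Lcn2 and Defb1 as CPM plus 1 (log axis) in 7 cell types, 1 point per library coloured by condition. Ductal cells are drawn from any number of cells and the others from at least 10. Ductal Lcn2 is at 11406 in the untreated replicate 1 library, where β-cells are at 38.4.

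Whether the response to cytokines differed between cell types was tested as an interaction. Between β-cells and non-β endocrine cells 1 of 9 genes was called, where 2.76% of genes were: Saa3 by 9.81 ± 1.18 (log2, SE, adjusted p = 0.027). This rests on the 180 UMIs of the untreated α-cell described above, and without the highest cell of each library 0 genes were called. The intervals for the others are wide, as for Lcn2 at 1.42 ± 1.89 (SE), Steap4 at 0.37 ± 0.37 and Defb1 at 0.53 ± 0.57. Between β-cells and macrophages Orm1 (4.06 ± 1.32, adjusted p = 0.049) and Saa3 (14.77 ± 4.66, adjusted p = 0.039) were called, 2 of 9, where 4.38% of genes were. Saa3 had 2 UMIs in all macrophages and passed the filter through the β-cells with cytokines, so it had to differ. Without the highest cell of each library the adjusted p was 0.587 for Orm1 and 1 for Saa3. Between β-cells and endothelial cells Lcn2 (3.58 ± 0.87, adjusted p = 0.0095) and Steap4 (3.44 ± 1.09, adjusted p = 0.03) were, 2 of 9, where 6.11% of genes were. DESeq2 gave an adjusted p of 0.0647 for Lcn2 and 0.144 for Steap4 against endothelial cells, and no adjusted p for Orm1 and Saa3 against macrophages. Each of these calls was lost when 1 or another of the libraries was left out.

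In untreated islets 2 members passed the filter for a comparison of cell types, Lcn2 and Defb1. For Defb1 the difference from untreated β-cells was -0.97 ± 0.24 for non-β endocrine cells (log2, SE, adjusted p = 0.004, with 27.5% of genes called), which was a call lost with scaling to total UMIs (-0.41, adjusted p = 0.213) and in DESeq2. It was -3.23 ± 0.6 for macrophages (adjusted p = 0.00012, 54.2% called), -5.95 ± 0.74 for endothelial cells (adjusted p = 5.7e-07, 59.8% called), and mesenchymal cells had no Defb1 UMI (adjusted p = 2.8e-05, 49.2% called). Lcn2 was not called against any of the 4 types. Pigr, which was not tested here, had 842 UMIs in untreated β-cells (a mean of 18.4 CPM), 5 in non-β endocrine cells (1.08 CPM) and none in macrophages, endothelial and mesenchymal cells. The cell types were clustered on the same cells and genes, so these values are closer to a description than to a test.

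Other genes of the response were read from lists that were chosen with earlier results known. Of 40 other acute-phase and defence genes, 19 were tested in β-cells and 13 rose with cytokines and 1 fell, with a median change of 3.33 (log2), where 23.7% of all genes rose and 22.4% fell. Ltf rose by 9.96 ± 0.31, Serpina3n, a protease inhibitor of the acute phase, by 4.59 ± 0.33 and Chil1, a chitinase-like secreted protein, by 3.63 ± 0.32 (log2, SE). Ltf was near zero in β-cells without cytokines, as the neutrophil list above shows. It passed the filter through the cytokine conditions, so its call is no evidence of its own. Counts of called list genes are a description for that reason. In α-cells 7 of 12 rose (14.5% of all genes), led by Hamp, the iron hormone hepcidin (4.83 ± 0.27), and Cd14, a receptor for lipopolysaccharide (3.47 ± 0.56), and Serpina3n rose too. In δ-cells 3 of 12 rose (4.13% of all genes), Ltf, Cp (ceruloplasmin) and Tfrc (the transferrin receptor). Lgals3bp, a secreted glycoprotein, was the 1 of 4 that rose in endothelial cells (4.46% of all genes), and the 5 genes tested in macrophages and in mesenchymal cells had median changes of 0.23 and 1.68, none past the test. Between the cytokine conditions in non-β endocrine cells 1 of 15 was higher without NMMA, Tfrc (1.41 ± 0.24), and 5 were lower (5.33% and 5.22% of all genes), among them Cd14 (-2.51 ± 0.28) and Ltf (-1.76 ± 0.24).

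Of 20 regulators of acute-phase genes, 19 were tested in β-cells, 14 rose and 4 fell with cytokines, with a median of 1.18 (log2), against 23.7% and 22.4% of all genes. Nfkb2 rose by 2.88 ± 0.25 and Nfkbiz, a nuclear cofactor of NF-κB at acute-phase promoters, by 2.27 ± 0.13 (log2, SE). In α-cells 10 of 16 rose and 2 fell, with Cebpd first (4.53 ± 0.28), in δ-cells 3 of 17 rose, in macrophages 5 of 8, in endothelial cells 8 of 15 with 1 lower, and in mesenchymal cells 3 of 14. Of all genes 14.5% rose in α-cells, 4.13% in δ-cells, 3.82% in macrophages, 4.46% in endothelial and 1.73% in mesenchymal cells. Cebpd rose less in β-cells than in non-β endocrine cells, by -2.14 ± 0.25 (log2, SE, adjusted p = 6.8e-05), and so did Cebpb, by -1.63 ± 0.21. In mesenchymal cells Il6 was among the genes that rose (6.30 ± 0.62), and in macrophages Il1rn and Socs3 were.

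The 8 listed receptors for the members' proteins were mostly too low to test. Of 3 tested in β-cells 2 fell with cytokines, Slc22a17, which takes up lipocalin 2 (-1.04 ± 0.16, log2, SE, adjusted p = 0.00084), and Ager, a receptor of S100 proteins (-1.82 ± 0.56, adjusted p = 0.025). Slc22a17 also fell in non-β endocrine cells (-1.18 ± 0.32, adjusted p = 0.014). In macrophages, mesenchymal and endothelial cells the 2 receptors tested had median changes of -0.58, -0.84 and -0.45 with cytokines, none past the test.

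The genes with the pattern most like that of Lcn2 over 47 sums of cell type and library were Ltf (r = 0.854), Lrg1 (0.849), Gbp10 (0.848), Cd82 (0.829) and Vnn3 (0.822). For Defb1 they were Cd82 (0.868), Cblc (0.848), Arhgap8 (0.830), Fhod3 (0.821) and Eppk1 (0.819). Pearson's r of log2(CPM + 1) was taken among 10748 genes, and sums of a library share its depth and treatment.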

How the data were processed

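The authors deposited raw UMI counts per gene and barcode for each of the 8 libraries, aligned to mm10 per the labels' processing notes. Per the file headers replicate 1 was made with Cell Ranger 3.0.0 and replicate 2 with 6.0.0. The methods name the v3 kit and the labels v2. Barcodes with at least 200 genes, at most 5500 (replicate 1) or 6500 genes (replicate 2) and at most 10% mitochondrial UMIs were kept. Cells were clustered in scanpy 1.11.5 (Leiden, resolution 1) and named by marker genes. A cluster led by PP-cell genes had too few markers to be named, and names can differ from the study's. The 99 predicted doublets were removed only as an alternative.

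Counts were summed per cell type and library (at least 10 cells) and tested in edgeR 4.0.16 (filterByExpr, TMM, robust quasi-likelihood, R 4.3.3), all conditions of a type in 1 fit. Calls were made at 0.05 after Benjamini-Hochberg adjustment across every gene tested in a comparison. Differences between cell types had the library as a block. DESeq2 1.42.0, total UMI scaling, no count filter, the replicate as a block, other cell filters and clusterings, and leaving out each library were alternatives. Removing the highest cell of each member per library was added after the data were seen. Libraries with the same replicate number share a pool of islets, so replicate numbers pair the samples. Their deviations from the condition means correlate in β-cells with r between 0.728 and 0.821 (6 pairs, 9840 genes). The replicates also differ in Cell Ranger version, which cannot be told apart from the pool. The main fits within a cell type left the pairing out, and the replicate block fit took it in. The fits were also run on simulated sums, without a replicate effect and with changes only in genes above a minimum mean count. That run therefore does not cover members near zero or paired libraries, and its outcome is not given here.

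Before shares were counted, cells were thinned to a depth that 80% of the cells of a type reach in every library (β-cells and α-cells 9500 UMIs, δ-cells 7000, macrophages 1500, ductal cells 10500, mesenchymal cells 1000). Shallower cells were left out. Intervals are exact Clopper-Pearson or Poisson intervals at 95% and cover counting error only. Gene positions are from GENCODE M21. All 10 members are reported. Of each list, the 3 called genes with the smallest adjusted p in a comparison could be named. The values of 1 gene of the lists are not reported here. Members and lists were chosen with earlier results of these data known.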

Additional observations from a re-analysis of the deposited data

Results flagged for a closer look

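A test of the difference between β-cells and another cell type in the response to cytokines was passed for 5 pairs of gene and cell type, and each of the 5 was lost when 1 or another library was left out. The difference (log2, β-cells minus the other type) was 9.81 for Saa3 and non-β endocrine cells, 4.06 for Orm1 and 14.77 for Saa3 against macrophages, and 3.58 for Lcn2 and 3.44 for Steap4 against endothelial cells. Macrophages held 2 UMIs of Saa3 in all libraries together. Without the highest cell of each library the adjusted p was 0.662 for Saa3 against non-β endocrine cells, 0.587 for Orm1 and 1 for Saa3 against macrophages and 0.23 for Steap4 against endothelial cells. DESeq2 gave 0.0647 for Lcn2 and 0.144 for Steap4 against endothelial cells.

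Barcodes that were put in no cell type also held the genes, in most cytokine libraries above the level in both untreated libraries of the same kind. Lcn2 was at 400.9 CPM with cytokines plus NMMA in replicate 1, at 499.5 with cytokines in replicate 2 and at 1138 with cytokines plus NMMA in replicate 2. In the cytokine library of replicate 1 Lcn2 was at 54.9 (6 UMIs), below the 113 and 248 of the untreated libraries. Defb1 was at 173.9 and 463.8 with cytokines and at 113.5 and 347.1 with cytokines plus NMMA, in replicates 1 and 2.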

How the results depend on the processing

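The 70 results for single genes include some that were not called. Of these 70, 35 kept direction and status (called or not called) under every alternative that gave a value. Among them were the calls of Lcn2, Steap4, Pigr, Saa3 and Defb1 in β-cells with cytokines. Over 1190 refits 1073 kept the status, 82 lost a call, 31 gained one and 4 had no or the opposite change. Lrg1 in α-cells with cytokines plus NMMA stayed uncalled throughout, while its change ran from 0.63 to 10.53 (log2). Orm1 in non-β endocrine cells ran from 0 (without cytokines replicate 2) to 6.62 when libraries were left out, and its difference between β-cells and macrophages from -4.59 (without untreated replicate 2) to 11.46. The difference between β-cells and non-β endocrine cells ran from -3.13 (without untreated replicate 2) to 3.60 for Lcn2 and from -0.027 (without untreated replicate 1) to 0.99 for Defb1, and was called in none of these fits. Scaling to total UMIs lowered the median of all genes in β-cells with cytokines by 0.22 (log2) and moved the calls from 3030 higher and 2859 lower to 1977 and 3939. In non-β endocrine cells with cytokines the median fell by 0.43 and the calls went from 1399 higher and 938 lower to 751 and 2544. The same scaling gave 682 and 2575 in place of 1398 and 859 in α-cells with cytokines, and 230 and 1498 in place of 578 and 566 between the cytokine conditions in non-β endocrine cells, and called members kept their direction. The replicate block changed no call beyond those given in the report.

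The number of members called moved as follows. Between the cytokine conditions in non-β endocrine cells it went from 3 to 5 with no filter on low counts and to 1 with a mitochondrial limit of 5%. In δ-cells with cytokines it went from 4 to 1 without the highest cell. With no filter it went from 0 to 1 in macrophages and in endothelial cells with cytokines and in mesenchymal cells with cytokines plus NMMA. For the difference of β-cells from non-β endocrine cells it went from 1 to 2 with total UMI scaling and with no filter and to 0 without the highest cell. From macrophages it went from 2 to 0 without the highest cell (DESeq2 gave no adjusted p for either gene), and from endothelial cells from 2 to 0 with DESeq2 and to 1 without the highest cell. Untreated, the count against β-cells was 0 with total UMI scaling, DESeq2 or the 5% limit and 4 with no filter for non-β endocrine cells (1 as reported). For macrophages it was 2 with DESeq2 and 3 with no filter, and for endothelial and mesenchymal cells 2 with either (1 as reported). The cause was not tested. Without thinning, the mean share of β-cells with Lcn2 under cytokines was 37.0% in place of 29.5%.

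Leaving out 1 library at a time gave 6 to 8 members in β-cells with cytokines and 0 with NMMA. In non-β endocrine cells it gave 2 to 4 with cytokines, 4 to 6 with cytokines plus NMMA, 1 to 4 between these and 0 to 1 with NMMA. It gave 2 to 3 and 4 in α-cells and 2 to 4 and 6 to 9 in δ-cells, for cytokines and cytokines plus NMMA. In macrophages both counts ran from 0 to 1, as did those of mesenchymal and endothelial cells with cytokines plus NMMA, and other counts of these types stayed at 0. Differences from β-cells ran from 0 to 2 for non-β endocrine cells, 0 to 3 for macrophages and 0 to 2 for endothelial cells. The comparisons of untreated types were not refitted this way. δ-cells gave no value without cytokines replicate 2 or with a minimum of 20 cells. Rare types limit depth most: macrophages had 28 to 72 cells per library, and most members stayed under the filter there.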
